A study of Sus scrofa domesticus with 4 samples.

Results

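The genes described here make, break down or carry lipid: SREBF1, ACLY, FASN, SCD, LIPE, APOA1 and PHYH. They were found on the array through the RefSeq identifiers of its probes, which gave 26 probes for all 7 genes, out of 3029 named genes on the array. Of these probes 25 passed the filter on dim spots (well above background in at least 4 of 8 readings), and 1 probe of ACLY did not. The study treated slices of porcine endometrium, the lining of the uterus, with orexin A (OXA), a hypothalamic peptide that acts on appetite and wakefulness, and asked how it alters gene expression in early pregnancy. The tissue came from 4 gilts (Large White x Polish Landrace, 7 to 8 months old) on days 15 to 16 of gestation.

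Both groups were slices from the middle of the uterine horns, kept in medium 199 for 2 h and then for another 24 h. The OXA group had OXA in the medium at 10 nM by the sample labels or 10 µM by the series' design text, and the control group had no treatment. RNA of both groups was labelled with Cy3 and Cy5 and hybridised in pairs, 1 OXA-treated and 1 control RNA on each of 4 arrays. The labels of the single samples give OXA as Cy5 for arrays 1 and 3 and as Cy3 for arrays 2 and 4, whereas the wording of the labelling protocol has OXA in Cy5 throughout. Each group had 4 separate experiments with duplicate cultures, and the sources used here do not say if an array paired RNA of a single gilt. The p-values therefore measure only the spread between arrays, part of which may be technical. A slice is a mixture of epithelium, stroma, vessels and immune cells, so fewer cells of a type and less RNA per cell cannot be told apart in any value below.

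As background, cells build fatty acids from citrate. ATP citrate lyase (ACLY) splits citrate into acetyl-CoA, fatty acid synthase (FASN) joins acetyl units into palmitate, and stearoyl-CoA desaturase (SCD) puts a double bond into the finished chains. The transcription factor SREBP-1, encoded by SREBF1, is best known for driving these enzymes in liver and fat. Hormone-sensitive lipase (LIPE) works the other way and releases fatty acids from stored fat. Apolipoprotein A-I (APOA1) is the main protein of high-density lipoprotein, which takes up cholesterol from cells, and phytanoyl-CoA hydroxylase (PHYH) starts the breakdown of branched fatty acids in peroxisomes. In the uterus around implantation, lipids serve among other things as precursors of prostaglandins.

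The share of probes well above background followed the dye and was higher in Cy5 than in Cy3 on every array. It was 62.4%, 68.1%, 74.5% and 71.8% in Cy5 on arrays 1 to 4. In Cy3 it was 31.8%, 56.7%, 52.1% and 55.4%. OXA-treated RNA thus had 55.4% to 74.5%. Control RNA had 31.8% on array 1, where it was in Cy3, and 52.1% to 71.8% on arrays 2 to 4. Array 1 was on a slide of its own and was scanned 71 days after the others, and no spot was saturated. The tissue label was checked on markers: the epithelial genes EPCAM and CDH1 and the stromal gene DCN were well above background in 8 of 8 readings. Of the adipocyte markers, PLIN1 and CIDEC were well above background in 0 of 8 readings, ADIPOQ and FABP4 in at most 4, LEP in 7 and LIPE, itself on that list, in 8. Of the liver and yolk sac proteins, AFP was in 0 of 8, TTR in at most 3, SERPINA1 in at most 5 and ALB in at most 6, while APOA2 and the brightest probe of TF were in 8 of 8.

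Across the 7 genes the OXA coefficients were of mixed sign. FASN, PHYH, ACLY and SCD had values above control and SREBF1, APOA1 and LIPE below it. The exceptions, above control, were LIPE with median centring, and LIPE and APOA1 with OXA taken as Cy5 on every array. The OXA coefficients, on a log2 scale of OXA over control, ran from -0.45 to 0.41 with a median of 0.12, against a median of -0.02 over the 2407 named genes measured. None of the 7 genes passed limma's test (adjusted p = 0.763 for each), and 0% of all 26927 probes did (0 probes, against 500 probes or 1.86% at an unadjusted p under 0.05). Of the 7 genes, 2 had an unadjusted p under 0.05 in the setting used, APOA1 below control and PHYH above it, but not in every alternative. With a fold of at least 1.2 added, PHYH was the 1 gene counted as higher, against 0.624% of probes, and APOA1 the 1 gene counted as lower, against 0.672%. Among the 2407 named genes, read by their brightest probe as these 7 were, 14 were counted as higher and 45 as lower, and 80 had an unadjusted p under 0.05. A coefficient past a fold of 1.2 in either direction was seen for FASN, SREBF1, APOA1 and PHYH, 4 of 7 genes, against 11.1% of probes. With the mean of all kept probes of each gene, SREBF1 alone was past that fold, at -0.33. FASN, APOA1 and PHYH were then at 0.11, -0.25 and 0.23. The same 2 genes, APOA1 and PHYH, had the same sign on 4 of 4 arrays, against 11.9% of probes and 8.68% of named genes. The 7 genes were chosen with earlier results of these data known, so these counts beside the shares are a description only. The normalized levels of OXA and control RNA overlapped for 7 of 7 genes, and 0.501% of probes had levels that did not overlap (0.364% with OXA higher and 0.137% with OXA lower).

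**Figure D1:**
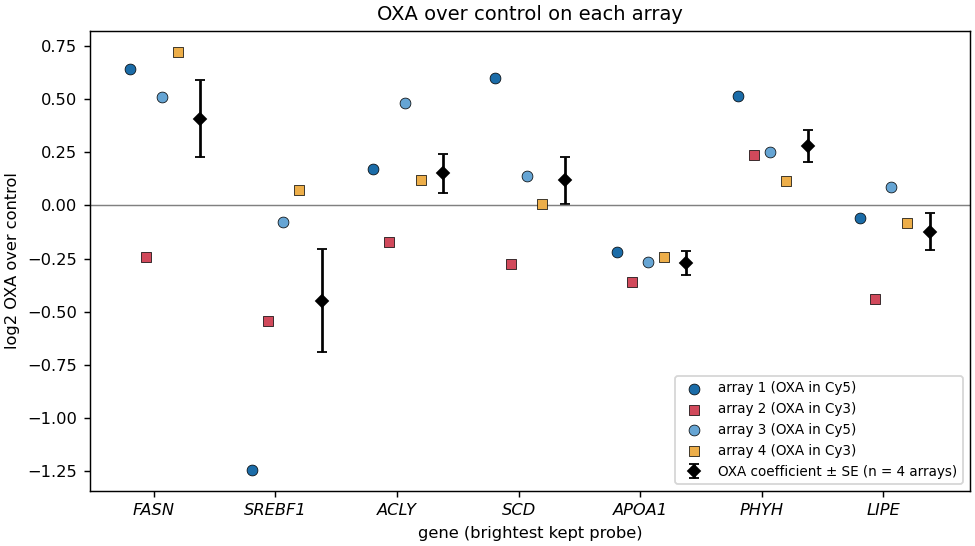
Log2 OXA over control (vertical axis) for the brightest kept probe of each gene (horizontal axis) on arrays 1 to 4, with circles for OXA in Cy5 and squares for OXA in Cy3. Black diamonds are OXA coefficients with their SE (n = 4 arrays). The 4 APOA1 points lie together between -0.36 and -0.22, the 4 PHYH points are all above 0, and the SREBF1 points spread from -1.25 to 0.07.

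SREBF1, the regulator of the synthesis enzymes, had the lowest coefficient and the widest spread when each gene was read by its brightest probe. Its brightest probe (A_72_P223967) had log2 levels of 10.72, 10.95, 10.79 and 11.28 in OXA-treated RNA on arrays 1 to 4, against 11.97, 11.49, 10.86 and 11.21 in control RNA. The control level of array 1 was the highest of the 8, and the groups overlapped. The ratios of OXA over control were -1.25, -0.55, -0.08 and 0.07, so that arrays 1 and 2 were clearly below 0 and arrays 3 and 4 near it. The coefficient was -0.45 (SE 0.24; limma, adjusted p = 0.763), a fold of 0.732. Without array 1 it was -0.16, without array 2 -0.30 and without array 3 -0.74, and with median centring it was -0.19. The second probe, almost as bright (mean log2 brightness 11.18 against 11.20), gave a coefficient of -0.20 (SE 0.11), with -0.39, -0.40, -0.02 and 0.00 on the 4 arrays. In both probes arrays 1 and 2 were below arrays 3 and 4, and on array 1 the brightest probe was much the lower. In Agilent's own log ratio the means were -0.67 and -0.35.

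FASN, the palmitate-making enzyme, had the highest coefficient. Its brightest probe (A_72_P223177) had log2 levels of 13.44, 13.54, 13.58 and 13.83 in OXA-treated RNA, against 12.80, 13.79, 13.06 and 13.11 in control RNA. OXA-treated RNA varied little between arrays (SD 0.17, n = 4) and control RNA more (SD 0.42, n = 4), with the control of array 2 above 3 of the 4 OXA values. The ratios were 0.64, -0.24, 0.51 and 0.72, above control on 3 of 4 arrays with array 2 the exception. The coefficient was 0.41 (SE 0.18; limma, adjusted p = 0.763), a fold of 1.33. Without array 2 it was 0.65, and without array 4 it was 0.17. With median centring it was 0.72, from 1.81 and 2.41 with OXA in Cy5 and -1.09 and -0.27 with OXA in Cy3.

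The other FASN probes were much dimmer and did not show the same ratio. They had coefficients of -0.01 (SE 0.06) and -0.07 (SE 0.07), and the mean of all 3 probes was 0.11. The dimmest was well above background in 4 of 8 readings, and its ratios on arrays 2 to 4 were within 0.0050 of 0. The correction of the background used here pulls ratios of dim probes toward 0. In Agilent's log ratio the brighter of both was -0.14, -0.64, 0.53 and 1.17 on arrays 1 to 4, with a mean of 0.23, and the dimmest had a mean of -0.25.

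ACLY, which feeds acetyl-CoA into the pathway, had a small coefficient whose size depended on the scaling. Its brightest probe (A_72_P165331) had log2 levels of 13.27, 13.83, 13.70 and 13.27 in OXA-treated RNA, against 13.10, 14.00, 13.21 and 13.15 in control RNA. Array 2 had the highest level in both groups. The ratios were 0.17, -0.17, 0.48 and 0.12, and array 3 was the highest. The coefficient was 0.15 (SE 0.09; limma, adjusted p = 0.763). Without array 3 it was 0.07, without array 4 0.08 and without array 1 0.23, and with median centring it was 0.47. The other kept probe gave 0.02 (SE 0.15), with 0.67 on array 3 and values below 0 on the other 3 arrays.

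SCD, the desaturase, had 9 probes, all kept, and all 9 coefficients were above 0, from 0.03 to 0.17. The brightest (A_72_P088586) had log2 levels of 12.87, 12.14, 12.60 and 11.90 in OXA-treated RNA, against 12.28, 12.41, 12.46 and 11.89 in control RNA. Its ratios were 0.60, -0.28, 0.14 and 0.01, with the groups overlapping. The coefficient was 0.12 (SE 0.11; limma, adjusted p = 0.763). Array 1 was the highest for all 9 probes (0.12 to 0.71), and on array 2 only 1 probe was above 0 (from -0.34 to 0.04). Arrays 3 and 4 had 7 of 9 probes above 0 each, with none above 0.22 and 0.05. Array 1 decided the value, since without it the coefficient was 0.0031. In Agilent's log ratio the brightest probe had a mean of 0.03, while median centring gave 0.51.

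The 4 synthesis genes did not share a direction on every array. On array 1 SREBF1 was at -1.25 while ACLY, FASN and SCD were at 0.17, 0.64 and 0.60. On array 2 all 4 were below control. On array 4 FASN alone stood clear of control, at 0.72, with SREBF1, ACLY and SCD between 0.01 and 0.12.

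LIPE, the lipase of stored fat, had 3 kept probes, all with coefficients below 0 (-0.12 to -0.02). The brightest (A_72_P223552) had log2 levels of 11.54, 11.47, 11.52 and 11.66 in OXA-treated RNA, against 11.60, 11.91, 11.43 and 11.74 in control RNA. Control RNA of array 2 was the highest of the 8 levels. The ratios were -0.06, -0.44, 0.09 and -0.08, so that array 2 was apart from the others. The coefficient was -0.12 (SE 0.09; limma, adjusted p = 0.763), and it was -0.03 without array 2 and -0.21 without array 4. Its sign was not stable to scaling: with each array centred on its median in place of the intensity-dependent loess, it was 0.19.

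APOA1, the protein of high-density lipoprotein, had the most uniform values of the 7 genes as normalized here. This did not hold in Agilent's log ratio, where APOA1 ran from -0.96 to -0.17 and ACLY from -0.09 to 0.25. Its brightest probe (A_72_P035886) had log2 levels of 11.06, 11.77, 11.13 and 12.00 in OXA-treated RNA, against 11.28, 12.13, 11.40 and 12.24 in control RNA. Levels differed more between arrays than within them, and within each array the OXA-treated RNA was the lower. The ratios were -0.22, -0.36, -0.27 and -0.24, a mean of -0.27 ± 0.06 (SD, n = 4) and a fold of 0.828. The second probe, read from the same RNA on the same arrays, gave -0.23 (SE 0.06). Each of the gene's probes was below 0 on 4 of 4 arrays, as were 4.26% of all probes. Leaving out each array in turn gave -0.30 to -0.24.

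The size for APOA1 depended on the processing. Without background correction the coefficient was -0.43, and Agilent's log ratio gave -0.50, where array 3 was -0.96 and the other arrays -0.46 to -0.17. With median centring it was -0.05, with array values of 0.82 and 0.84 where OXA was in Cy5 and -0.90 and -0.95 where it was in Cy3, while that scaling put the median over all probes at 0.14. If the labelling protocol holds and every array had OXA in Cy5, the coefficient was 0.03. The authors' deposited table is turned as the labels of the single samples have it, with slopes of 1.00 against OXA over control on arrays 2 and 4 too. The limma adjusted p was 0.160 to 1 over the 16 alternatives, and lowest without array 3.

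PHYH, the peroxisomal hydroxylase, was above control with all 4 of its probes. The brightest (A_72_P440081) had log2 levels of 12.19, 11.08, 12.18 and 11.71 in OXA-treated RNA, against 11.67, 10.84, 11.92 and 11.59 in control RNA. Array 2 was the lowest in both groups, and the groups overlapped. The ratios were 0.52, 0.24, 0.25 and 0.12, with array 1 the highest. The coefficient was 0.28 (SE 0.07; limma, adjusted p = 0.763), a fold of 1.215. The 4 probes ran from 0.15 to 0.28, and each was above 0 on 4 of 4 arrays, as were 7.64% of all probes. The probes read the same RNA on the same arrays and are not replicates of each other. On array 1 the probes were at 0.42 to 0.72, and on arrays 2 to 4 they were at 0.05 to 0.25. Without array 1 the brightest probe was 0.22, and over each array left out in turn it was 0.22 to 0.35. In Agilent's log ratio 15 of 16 values were above 0, the exception being the brightest probe on array 3 at -0.03. Median centring gave 0.73. Its array values were 1.63 and 1.81 with OXA in Cy5, and -0.09 and -0.44 with OXA in Cy3. Taking OXA as Cy5 on every array gave 0.10.

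**Figure D2:**
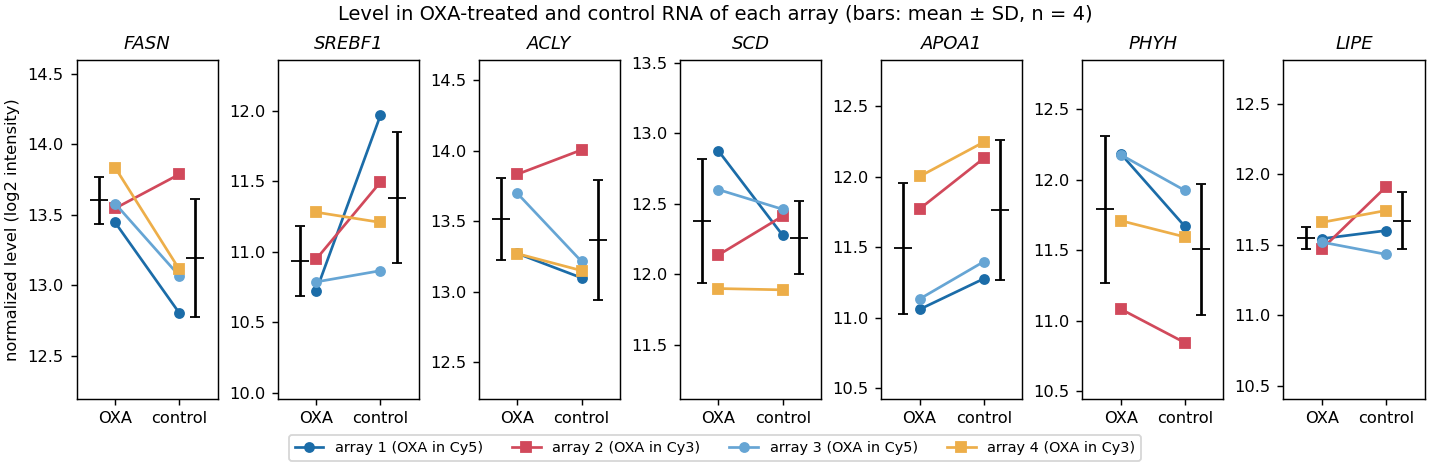
Normalized level (vertical axis, log2 intensity; each panel spans the same range) of the brightest kept probe in OXA-treated RNA (left) and control RNA (right), joined within each of the 4 arrays; black bars are mean ± SD (n = 4). APOA1 lines all run up toward control and PHYH lines all run down toward it, while the levels of both groups overlap in every panel.

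**Figure D3:**
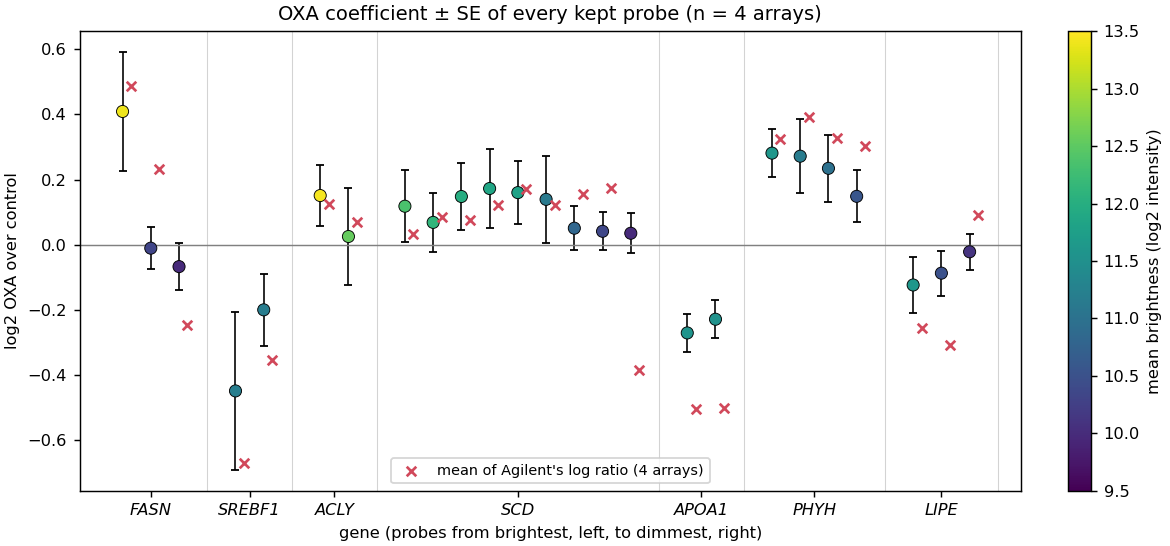
OXA coefficient ± SE (n = 4 arrays, log2 OXA over control) of the 25 kept probes, ordered within each gene from brightest to dimmest and shaded by mean brightness; crosses are means of Agilent's log ratio. The kept probes of SREBF1, ACLY, APOA1 and PHYH keep to one side of 0 in both measures, and the FASN value of 0.41 rests on the brightest of 3 probes.

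Cell type markers also differed between the arrays. The 3 measured stromal fibroblast genes, of 7 listed (LUM, DCN and COL1A2), had medians of 1.44, 0.02, 0.08 and 0.26 on arrays 1 to 4, and their summed level was 23540 to 79570 intensity units in OXA-treated RNA, against 24750 to 57920 in control RNA. The 6 measured epithelial genes, of 11 listed, had medians of -0.84, -0.34, -0.0033 and 0.53, with summed levels of 84340 to 119900 in OXA-treated RNA, against 75260 to 184800 in control RNA. Array 1, where SREBF1 was lowest and SCD and PHYH were highest, was thus the array with the highest stromal and the lowest epithelial median. Their part in these values was not tested. The brightest probe of each of these 9 markers was well above background in 8 of 8 readings. The OXA coefficients of the stromal genes had a median of 0.39, with 3 of 3 genes above 0 and past a fold of 1.2, and those of the epithelial genes had a median of -0.11, with 2 of 6 above 0. The other measured marker lists had medians of -0.20 (endothelium), -0.15 (smooth muscle), -0.14 (macrophage and myeloid), -0.07 (hepatocyte and yolk sac proteins), -0.05 (T and NK lymphocyte), -0.03 (adipocyte) and 0.03 (trophectoderm). No red cell marker was measured. For APOA1 and PHYH the values without array 1 were -0.28 and 0.22. The markers differed on the remaining arrays too, with epithelial medians of -0.34 on array 2 and 0.53 on array 4.

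The wider pathways were followed with 5 lists of lipid genes, in which 0 of 90 measured genes had an adjusted p under 0.05 in limma (3 had an unadjusted p under 0.05, against 80 of all 2407 named genes, which is about the same share). Of those 90 genes 43 were above 0, or 47.8%, with a median of -0.0089, against 42.5% and -0.02 over all named genes. Fatty acid and triglyceride synthesis had 10 of 23 genes above 0, with a median of -0.04. After FASN its highest gene was ACSL3, which activates long-chain fatty acids, at 0.34 (SE 0.13), with 0.64, 0.50, 0.28 and -0.06 on arrays 1 to 4 and its 3 probes at 0.15 to 0.39. SCD5, another desaturase, was -0.26 (SE 0.14), with -0.76 on array 1. LPIN2, a phosphatidate phosphatase of triglyceride synthesis, was -0.19 (SE 0.12), but its other probe was 0.0044.

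In cholesterol synthesis 5 of 12 genes were above 0 and the list median was -0.03, with an array median of -0.48 on array 1, which also had the lowest SREBF1 value. HSD17B7, which acts in both cholesterol and estrogen synthesis, was 0.22 (SE 0.06), with 0.05, 0.34, 0.20 and 0.30 on the arrays. It was the 1 gene of this list with an unadjusted p under 0.05. PMVK and NSDHL, enzymes of the mevalonate and the sterol steps, were -0.21 (SE 0.14) and -0.22 (SE 0.15), both lowest on array 1 (-0.52 and -0.72).

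In lipoprotein and cholesterol transport 9 of 16 genes were above 0 and the list median was 0.01, so APOA1, at -0.27, was among the 7 genes below 0. APOA2, the other apolipoprotein of high-density lipoprotein, had a similar coefficient, -0.30 (SE 0.17). Its arrays were -0.72, -0.49, -0.02 and 0.04, so that it was below control on 3 of 4 arrays where APOA1 was on 4 of 4. The lipoprotein receptors VLDLR and LRP8 were -0.09 (SE 0.07) and 0.13 (SE 0.11), each with its largest value on array 1 (-0.31 and 0.57).

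Lipolysis and lipid droplet genes had 5 of 17 above 0 and a median of -0.04. FABP3, a fatty acid carrier of the cytosol, was 0.42 (SE 0.16), with 0.83, -0.30, 0.62 and 0.52 on the arrays. Its 3 kept probes ran from 0.15 to 0.42. LIPA, the lysosomal lipase, was -0.27 (SE 0.11) and below 0 on 4 of 4 arrays (-0.53 to -0.05). PNPLA3, a lipid droplet protein, was -0.20 (SE 0.08), but its other probe was -0.03. Peroxisome and fatty acid oxidation genes had 14 of 22 above 0 and the highest list median, 0.04. Beside PHYH, ETFA, which passes electrons from fatty acid oxidation to the respiratory chain, was 0.32 (SE 0.13) with its 8 kept probes at 0.14 to 0.32. Catalase (CAT), a peroxisomal enzyme that removes hydrogen peroxide, was 0.28 (SE 0.15) with 9 probes at 0.02 to 0.28. PPARGC1A, a coactivator of mitochondrial genes, was 0.16 (SE 0.08). ETFA and PPARGC1A were above 0 on arrays 1 to 3 and below 0 on array 4, as was CAT.

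**Figure D4:**
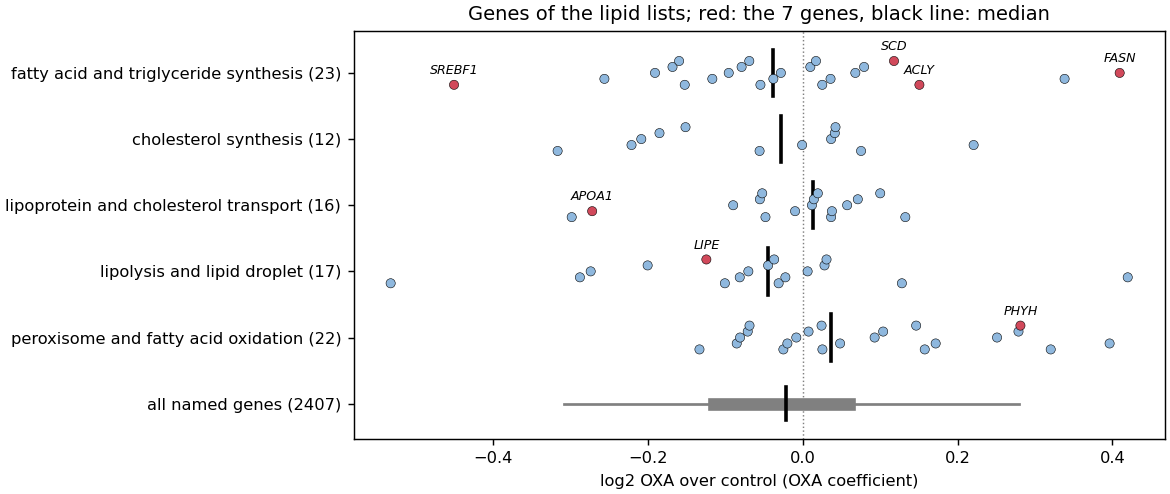
OXA coefficients (horizontal axis, log2 OXA over control) of the measured genes of each lipid list, with the number measured in brackets, the 7 genes in red and the list median as a black line. The grey bar shows all 2407 named genes, with the middle 50 percent thick and the 5th to 95th percentiles thin (-0.31 to 0.28). List medians lie between -0.04 and 0.04, while FASN and SREBF1 lie well outside that thin bar and PHYH at its edge.

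Genes with the nearest pattern were ranked by the root mean square difference of the 4 ratios, over 2406 other named genes and 4 arrays. For FASN the nearest were FABP3 (0.15) and CD81 (0.20), and FABP3 shared the dip on array 2 (-0.30). For SREBF1 they were PARD6B and EIF4G1 (0.06 each), both near -1.2 on array 1 (-1.26 and -1.21). For ACLY they were MRPL58 (0.05) and SAL1 (0.06), and for SCD ENG (0.06) and SAT2 (0.07). For APOA1 they were CYBA (0.06) and GNAS (0.10), each below 0 on 4 of 4 arrays. For PHYH they were SIRT7 (0.11) and VCL (0.12), and for LIPE STARD3 and FGL2 (0.03 each). The ranking used these same ratios, so the features that neighbours share follow from it. A gene with ratios near 0 has many near neighbours by this measure, so the distances are not comparable between the 7 genes.

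**Figure D5:**
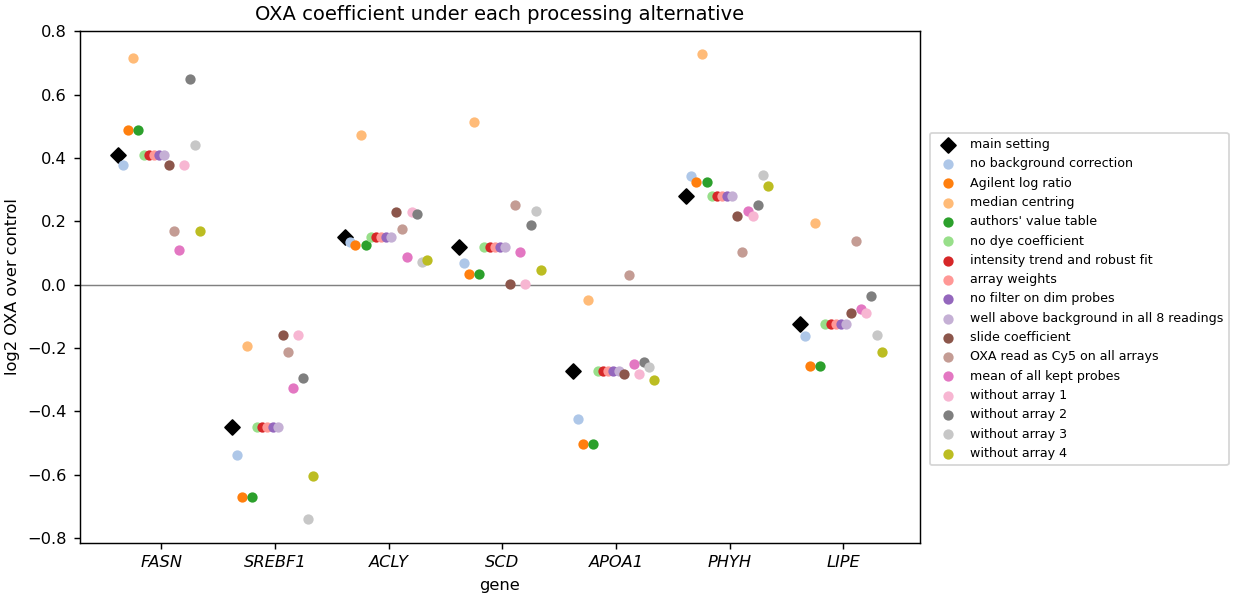
OXA coefficient (vertical axis, log2 OXA over control) of the 7 genes under the setting used (black diamonds) and 16 processing alternatives (coloured points). FASN, SREBF1, ACLY, SCD and PHYH keep their sign under all 16, APOA1 crosses 0 in 1 and LIPE in 2, and median centring shifts every gene upward. The 16 are not independent, since some leave the coefficient unchanged and some repeat another alternative.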

How the data were processed

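Intensity values were deposited by the authors as Agilent Feature Extraction 10.7.3.1 output, per the file headers: median spot and local background intensity in Cy3 and Cy5, and a background-subtracted, detrended and dye-normalized log10 ratio of Cy5 over Cy3. The authors' deposited value table holds log2 ratios; against Agilent's ratio over 26927 probes its slopes were 1.00 on each array, in the direction OXA over control, with column medians of -0.17, 0.06, -0.06 and 0.09 and its centring unknown. The headers name no genome build, so no coordinates are given.

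From the intensities, background was corrected with normexp (offset 50) and each array was normalized by loess. The log2 ratios went into a linear model with OXA and dye coefficients in limma 3.58.1 (R 4.3.3) (2 residual degrees of freedom, 3.88 after moderation), and adjusted by Benjamini-Hochberg over 26927 of 43603 probes. Control and outlier spots were left out (135 probes lost). Levels per channel were scaled with A-quantile normalization after loess. Genes were named through RefSeq accessions and the Sscrofa11.1 gene table (6700 probes), and their brightest kept probe was used. Named are the 7 genes, 3 more per lipid list by lowest unadjusted p, and 2 nearest genes each. The remaining measured apolipoproteins are named after their values were seen. Members and lists were chosen with earlier results of these data known. The scripts were tested on simulated data. The number of arrays limits the precision. No sequences are shown, since none were in the files used here.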

Additional observations from a re-analysis of the deposited data

Results flagged for a closer look

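Of 54 sets of 4 array values examined, 9 had a value standing apart from the other 3 by Dixon's ratio at the 95% level, a mark that chance puts on about 1 set in 20. The sets share the same 4 arrays and in part the same genes. They are therefore not independent, and the 9 cannot be set against that share. Array 1 was the one standing apart in 7 of them. On array 1, 2 of the PHYH probes were 0.61 (others 0.08 to 0.14) and 0.42 (others 0.05 to 0.08), the dimmest FASN probe was -0.27 (others within 0.0050 of 0) and the dimmest SCD probe 0.17 (others -0.03 to -0.0014). VLDLR was -0.31 there (others -0.03 to 0.0059), LRP8 0.57 (others -0.06 to 0.02) and the stromal fibroblast median 1.44 (others 0.02 to 0.26). Array 2 stood apart in the other 2, with the dimmest LIPE probe at -0.0853 (others -0.0059 to 0.0081) and the fatty acid and triglyceride synthesis median at -0.095 (others 0.0057 to 0.0092). The probes with values within 0.01 of 0 on several arrays were dim.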

How the results depend on the processing

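Of the 7 genes, FASN, SREBF1, ACLY, SCD and PHYH kept their sign in 16 of 16 alternatives and none of the 7 passed limma's adjusted threshold in any. Not all 16 bear on the sign. The coefficient itself was unchanged with no dye coefficient, with a trend and robust fit, with array weights and with either other filter. The authors' table repeated Agilent's log ratio, and the slide coefficient repeated the values without array 1. The unadjusted limma p for APOA1 and PHYH was 0.069 and 0.215 with Agilent's log ratio, and 0.465 and 0.0022 with median centring. That centring put each of the 7 genes higher on arrays 1 and 3, with OXA in Cy5, than on arrays 2 and 4. PHYH was below 0 on arrays 2 and 4 there. The unadjusted limma p was 0.075 and 0.079 with an intensity trend and robust fit, and 0.061 and 0.064 with the filter at 8 of 8 readings. For both it stayed under 0.05 with no dye coefficient, with array weights and with no filter on dim probes. Taking OXA as Cy5 throughout, APOA1 was 0.0302 and LIPE 0.14, and HSD17B7 was -0.10 and PNPLA3 0.0774. With median centring, where the median of all probes was 0.14, LIPE was 0.19, PMVK 0.14, NSDHL 0.0721 and VLDLR 0.046. With a slide coefficient, which gives the same coefficients as leaving out array 1, LRP8 was -0.0070, and it was -0.0070 to 0.27 with each array left out in turn. Leaving out each array in turn gave 0.17 to 0.65 for FASN, -0.74 to -0.16 for SREBF1, 0.07 to 0.23 for ACLY, 0.0031 to 0.23 for SCD, and -0.21 to -0.03 for LIPE. Probes past the adjusted threshold were 0 in 12 other alternatives and 0 to 6 with an array left out, the 6 without array 4. The looser count (unadjusted p under 0.05 and a fold of at least 1.2) was 349 as used, 1406 with no background correction, 1829 with Agilent's log ratio, 1824 with the authors' value table, 4297 with median centring (4293 higher and 4 lower, against 168 and 181 as used), 193 with array weights, 679 with OXA read as Cy5, and 285 to 3115 with an array left out (3115 without array 3, 2059 without array 4). The fatty acid list median was 0.0487 with median centring and -0.0953 when a probe had to be above background in 8 of 8 readings. The transport list was -0.0954 with Agilent's log ratio and with the authors' table. The lipolysis list was -0.19 with both, -0.16 with the stricter filter and 0.0649 with OXA read as Cy5, and the peroxisome list 0.17 with both and 0.35 with median centring. The cause of these shifts was not tested. The ratio within each array already pairs OXA-treated with control RNA. No paired analysis was possible because, beyond that pairing, no second group of arrays shares the replicate numbers. Ratios of dim probes are compressed toward 0 by the background correction, which limits the lists.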

Other observations

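Single arrays held large values of other lipid genes, named here after their values were seen. FABP5, a fatty acid carrier, was -2.41 on array 4, with 0.91, -0.37 and -0.25 on arrays 1 to 3 and a coefficient of -0.53 (SE 0.42). ACADM, an enzyme of mitochondrial fatty acid oxidation, was 0.66, 0.94 and 0.30 on arrays 1 to 3 and -0.31 on array 4, a coefficient of 0.40 (SE 0.24). For both genes the adjusted p in limma was 0.763.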
